A study of Mus musculus with 12 samples.

Results

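The 10 genes described here belong to the YAP and TEAD axis and were followed from colonic crypts into cultured epithelium: Yap1 and Tead1, which encode the co-activator and a transcription factor it binds, and Ctgf, Cyr61, Ankrd1, F3, Amotl2, Ajuba, Lats2 and Axl, which are known or reported targets of that pair. The genes were taken by symbol, and all 10 were found among the 23420 gene rows of each count table. The RNA came from the colon of wild-type mice in 12 libraries, 3 of each group: confluent monolayers at day 3, at day 4 and at day 5, and crypts. Per the labels, a mouse aged 6 to 10 weeks was the source of the crypts, crypt cells were first grown on collagen, and cells of those cultures were replated on scaffolds with a gradient of cross-linking. Whole monolayers were lysed, so each monolayer library averages over all cells of the layer, and every monolayer group had passed through the collagen culture that the crypts had not. Electrical resistance across the layer is part of the labels, at 526 ± 56 ohm cm2 (day 3), 623 ± 15 ohm cm2 (day 4) and 407 ± 53 ohm cm2 (day 5), with the type of error not named. The comparison asked how monolayers generated in vitro differ from colonic tissue.

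YAP and its paralog TAZ (gene Wwtr1) carry no DNA-binding domain and act on genes through TEAD factors, which bind DNA at a short core motif. The Hippo kinases, among them LATS2, phosphorylate YAP and TAZ and keep them out of the nucleus, whereas spreading of cells on a stiff matrix and stretching of the actin skeleton favour their entry. Several targets feed back on the pathway, and in the intestinal epithelium YAP is known for its part in regeneration after injury. RNA levels do not show where YAP protein was in the cell.

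The promoters of 6 members are shown here because the TEAD core lies in 5 of them and is missing from the window of F3, the most abundant member. In the RefSeq promoter table (build GRCm38.p6), which spans 250 bases before and 50 bases after an annotated start, 8 of the 10 genes had a window, and Lats2 had 2 starts, which gave 9 windows. Ctgf and Tead1 had none. The TEAD core was searched as GGAATG on both strands (CATTCC where it lies on the other strand), and the AP-1 motif as TGANTCA, which reads the same on both strands; no match of one overlapped a match of the other. Capitals mark these matches in the 6 windows below, each written 5′ to 3′ on the strand of its gene.
Cyr61, chr3:145649936-145650235, minus strand: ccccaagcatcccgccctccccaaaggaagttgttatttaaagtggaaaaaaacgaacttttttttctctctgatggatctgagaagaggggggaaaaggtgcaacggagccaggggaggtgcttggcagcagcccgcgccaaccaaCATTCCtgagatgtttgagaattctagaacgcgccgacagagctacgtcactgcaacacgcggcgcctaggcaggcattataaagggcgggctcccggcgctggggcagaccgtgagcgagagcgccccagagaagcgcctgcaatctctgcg
Ankrd1, chr19:36119795-36120094, minus strand: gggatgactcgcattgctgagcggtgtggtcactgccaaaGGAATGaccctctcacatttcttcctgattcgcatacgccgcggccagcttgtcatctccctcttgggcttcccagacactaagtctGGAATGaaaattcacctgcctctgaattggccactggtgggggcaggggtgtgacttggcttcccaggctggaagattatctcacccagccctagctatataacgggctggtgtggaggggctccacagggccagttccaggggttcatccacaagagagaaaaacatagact
Amotl2, chr9:102717554-102717853, plus strand: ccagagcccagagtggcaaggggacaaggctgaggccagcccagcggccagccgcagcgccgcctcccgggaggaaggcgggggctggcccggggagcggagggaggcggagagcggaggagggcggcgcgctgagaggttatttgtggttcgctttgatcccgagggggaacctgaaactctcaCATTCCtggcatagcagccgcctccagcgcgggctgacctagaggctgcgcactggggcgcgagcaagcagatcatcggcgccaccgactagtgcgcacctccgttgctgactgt
Ajuba, chr14:54577612-54577911, minus strand: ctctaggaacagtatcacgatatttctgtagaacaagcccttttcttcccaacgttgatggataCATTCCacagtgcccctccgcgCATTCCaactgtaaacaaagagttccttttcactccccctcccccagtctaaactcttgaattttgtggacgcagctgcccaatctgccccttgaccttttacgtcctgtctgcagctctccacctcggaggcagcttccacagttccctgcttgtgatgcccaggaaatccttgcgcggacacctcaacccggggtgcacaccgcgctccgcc
F3, chr3:121723287-121723586, plus strand: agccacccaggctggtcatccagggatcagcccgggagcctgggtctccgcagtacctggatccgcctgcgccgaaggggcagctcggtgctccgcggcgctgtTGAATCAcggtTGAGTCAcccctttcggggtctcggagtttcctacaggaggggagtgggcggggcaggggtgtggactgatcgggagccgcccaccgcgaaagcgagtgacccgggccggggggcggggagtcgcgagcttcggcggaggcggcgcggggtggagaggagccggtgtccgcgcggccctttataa
Yap1, chr9:8004547-8004846, minus strand: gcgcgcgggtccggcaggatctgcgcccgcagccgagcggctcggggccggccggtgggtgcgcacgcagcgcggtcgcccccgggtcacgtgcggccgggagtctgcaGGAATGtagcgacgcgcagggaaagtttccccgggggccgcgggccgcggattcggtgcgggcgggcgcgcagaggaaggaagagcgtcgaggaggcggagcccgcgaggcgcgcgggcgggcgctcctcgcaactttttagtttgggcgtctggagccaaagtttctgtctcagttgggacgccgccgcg

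Of the 8 genes with a window, 7 held the TEAD core, whereas 16.6% of all 27025 genes in the table did (14.7% of 32851 windows). Ankrd1 held it at 210 and 123 bases before the start and Ajuba at 186 and 164 bases before it. Cyr61 held 1 match at 103 bases before the start, Amotl2 1 at 65, Yap1 1 at 141 and Axl 1 at 233. In Lats2 the match lay 5 bases after the first annotated start, and the second start had none. F3 had no TEAD core in its window and instead held 2 AP-1 matches, at 146 and 135 bases before the start; an AP-1 match was present in 8.97% of all genes. These matches describe the sequence, and binding was not measured. The genes were listed as parts or targets of the YAP and TEAD axis, so their share with a TEAD core is not independent of that choice.

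**Figure D1:**
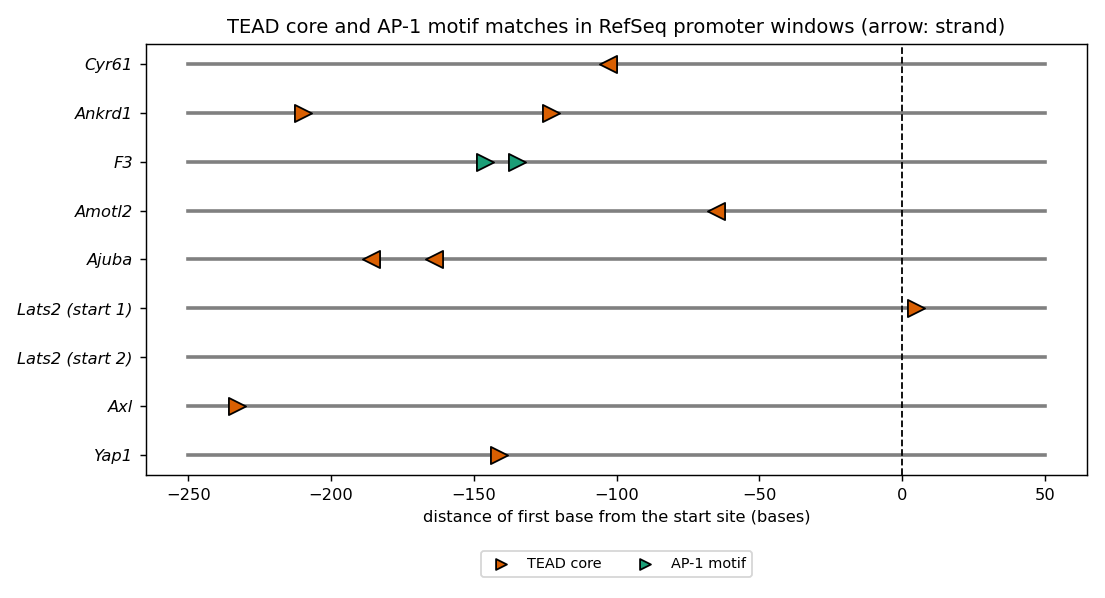
Position of each motif match in the 9 RefSeq promoter windows of the 8 genes that have one. The x axis gives the distance of the first base of a match from the annotated start in bases (dashed line: start), arrows give the strand, orange marks the TEAD core and green the AP-1 motif; matches stand before the start in every window that has one, except the first Lats2 start, whose match begins 5 bases after it.

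The gene count tables held between 4518314 and 14290393 reads in genes per library, which places a floor of 3 counts at 0.215 to 0.604 CPM (gene counts scaled to library size by TMM factors). Marker genes of epithelium summed to 10999 to 14784 CPM in monolayers and 9316 to 10592 CPM in crypts. Of these 8 markers 3 were called higher in monolayers, 3 lower and 2 not called, with a median log2 fold change of −0.03. Krt18 averaged 2336 CPM in monolayers and 518 CPM in crypts, whereas Cdx2 averaged 91.8 and 130 CPM. Markers of mesenchyme, 12 genes in all, summed to 1.80 to 5.44 CPM in monolayers and 23.1 to 97.8 CPM in crypts; the stromal genes Dcn and Lum and the pericyte gene Rgs5 were at 0 in all 9 monolayer libraries, and Acta2 and Rgs5 were at 0 in crypts. The 6 markers of endothelium summed to 0.538 to 4.02 CPM in monolayers and 3.52 to 6.78 CPM in crypts, and the 10 leukocyte markers to 24.5 to 54.6 CPM in monolayers and 19.3 to 39.5 CPM in crypts. The leukocyte sum in monolayers was carried by Cd68, at 31.3 CPM on average in monolayers and 1.35 CPM in crypts, whereas 5 of the 8 tested leukocyte markers were lower in monolayers, 2 higher (Cd68 and Csf1r) and 1 not called, with a median log2 fold change of −4.25. Ptprc, the pan-leukocyte gene CD45, averaged 0.232 CPM in monolayers and 17.0 CPM in crypts, and Cd3g and Cd52 had no count in monolayers. Cdh5 and Emcn were at 0 in crypts, and the leukocyte gene Emr1 was at 0 in all 12 libraries. In whole lysates a lower level cannot be told apart as fewer cells of a type or less RNA per cell.

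Of the 10 genes, 9 had enough counts to be tested. All 9 were higher in monolayers than in crypts, on average over the 3 days and at each day. No monolayer library was at or below any crypt library for them. Ctgf and Ankrd1, without a count in crypts, passed the count filter through monolayers alone, so they could only come out higher. Axl, which the filter removed, averaged 0.380 CPM in monolayers and 1.43 CPM in crypts. Over all 12863 genes tested, 63.5% were called in either direction between monolayers and crypts (30.7% higher), 56.3% at day 3, 57.1% at day 4 and 57.3% at day 5, with 28.4%, 28.7% and 28.4% higher. All libraries of one side lay above all crypt libraries for 22.7% of all genes in monolayers, and for 32.1%, 31% and 28.9% at days 3, 4 and 5. The members' median log2 fold change was 4.69 over the days, and 4.75, 4.65 and 4.65 at days 3, 4 and 5, where the median of all genes was −0.03 and their median absolute change 0.65. Setting Ctgf and Ankrd1, which had no count in crypts, at their lower bounds left the median over the days unchanged. The members were chosen with earlier results of these data known, so the comparison with all genes is not independent of that choice. A call was an adjusted p under 0.05 by edgeR's quasi-likelihood test with Benjamini-Hochberg adjustment over all genes tested. The comparisons of the 3 days share the same crypt libraries, and no label says if replicate libraries stem from different animals or cultures, so the p-values describe the spread among these libraries, which may be technical. Markers of mesenchyme (5 of 6 tested lower in monolayers) and leukocytes (5 of 8 lower), and the share of reads that fell in genes (41.8 to 43.5% in monolayers, 31.7 to 35.6% in crypts), also moved with this comparison, and their part in these differences was not tested.

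**Figure D2:**
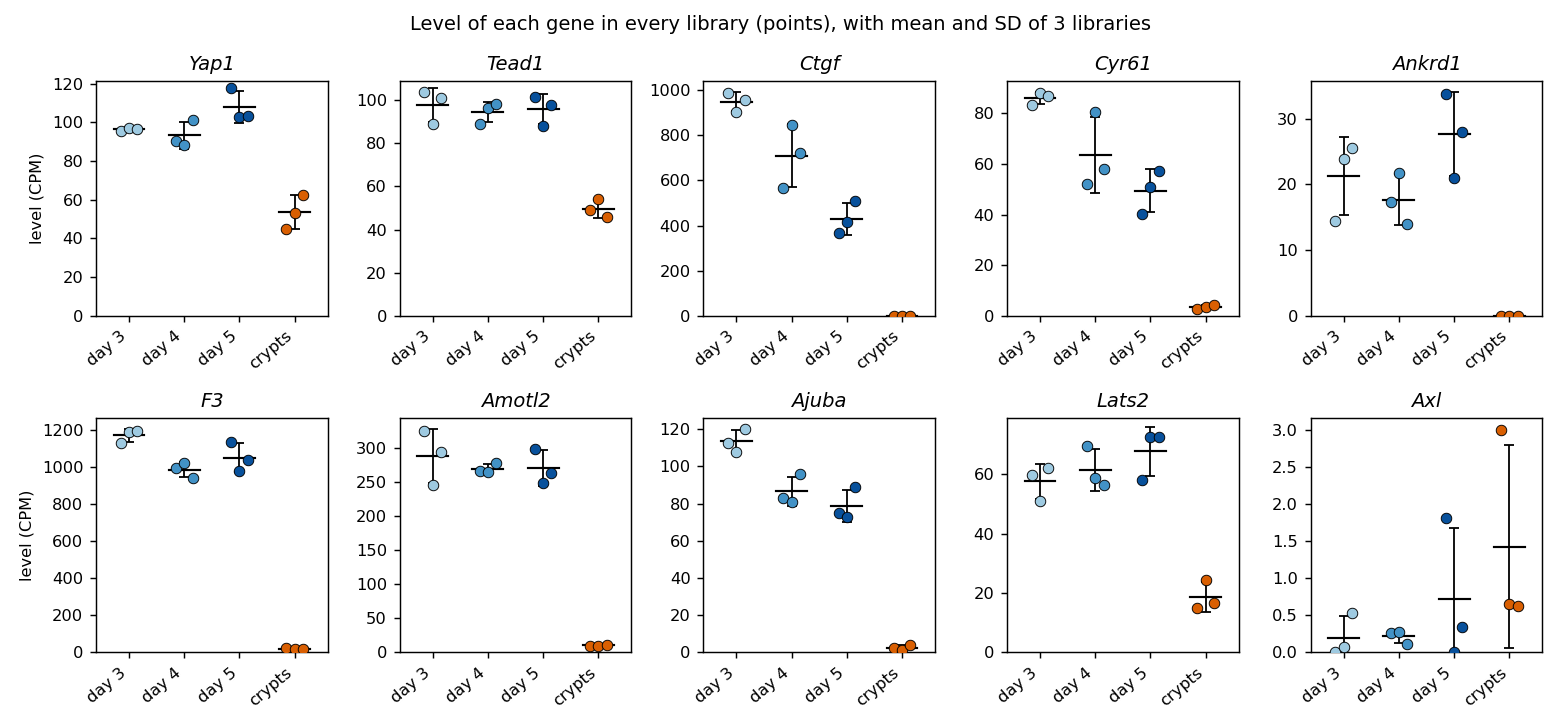
Level of each of the 10 genes in every library, in CPM on a linear axis that starts at 0. Points are libraries, the wide bar is the mean and the whiskers the SD of 3 libraries; monolayers at days 3, 4 and 5 (blue) lie above all crypt libraries (orange) for every gene but Axl, and Ctgf, Cyr61 and Ajuba are lower at day 5 than at day 3.

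The co-activator and its DNA-binding partner moved least. Yap1 stood at 95.3, 97.3 and 96.7 CPM at day 3, 90.5, 88.1 and 101 CPM at day 4 and 118, 103 and 103 CPM at day 5, against 44.8, 53.3 and 62.5 CPM in crypts, each in the order of replicates 1 to 3. All monolayer libraries lay above the highest crypt library, while days 3 and 4 overlapped and the day 5 libraries were the highest. Yap1 rose by a log2 fold change of 0.87 ± 0.10 (SE) in monolayers against crypts (edgeR adjusted p = 4.17e-07). The annotation places the antisense transcript Gm20416 over 116 bases of Yap1 exons, and reads of the 2 cannot be told apart without the strand setting of the counting, which no source used here gives.

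Tead1 encodes a TEAD factor found in most tissues. Its level was 104, 88.9 and 101 CPM at day 3, 89.1, 96.4 and 98.3 CPM at day 4 and 102, 88.3 and 97.8 CPM at day 5, against 49.2, 54.1 and 45.7 CPM in crypts. All 3 days overlapped one another. The log2 fold change of Tead1 in monolayers against crypts was 0.95 ± 0.09 (edgeR adjusted p = 4.74e-08), and by day it was 0.98, 0.93 and 0.95.

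Ctgf and Cyr61 encode secreted matricellular proteins of the CCN family that bind integrins, and both are textbook YAP targets. Ctgf was not counted once in crypts. Its level was 986, 903 and 956 CPM at day 3, 565, 843 and 722 CPM at day 4 and 368, 415 and 507 CPM at day 5, against 0, 0 and 0 CPM in crypts. Every monolayer library thus held 1827 to 12629 reads of a gene that had none in any crypt library. Set against a pooled crypt floor of 3 counts, Ctgf was at least 5514-fold higher in monolayers, and at least 7513-fold at day 3, 5624-fold at day 4 and 3406-fold at day 5; such bounds cover counting error only. The antisense transcript Gm15270 shares 636 exon bases with Ctgf.

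Cyr61 was lower in level than Ctgf in monolayers and detected in crypts. It reached 83.4, 88.0 and 86.8 CPM at day 3, 52.2, 80.4 and 58.1 CPM at day 4 and 40.3, 50.9 and 57.2 CPM at day 5, against 2.80, 3.52 and 4.33 CPM in crypts. No monolayer library came near the crypt range, and all day 3 libraries lay above all those of days 4 and 5. The log2 fold change in monolayers against crypts was 4.13 ± 0.20 (edgeR adjusted p = 1.66e-12), and by day it was 4.54, 4.10 and 3.74. Its TEAD core is the run in capitals in the window printed above.

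Ankrd1 encodes a nuclear and sarcomeric ankyrin-repeat protein that is widely used as a readout of YAP. It was at 14.5, 23.9 and 25.6 CPM at day 3, 17.3, 21.8 and 14.0 CPM at day 4 and 33.8, 21.1 and 28.1 CPM at day 5, against 0, 0 and 0 CPM in crypts. The 3 days overlapped, and day 5 had the highest library. Ankrd1 was at least 176-fold higher in monolayers than in crypts against the pooled floor of 3 counts, and at least 169-, 140- and 219-fold higher at days 3, 4 and 5.

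F3 encodes tissue factor, the cell-surface receptor that starts the extrinsic clotting cascade, and was the most abundant of the 10 genes in monolayers. Its level was 1132, 1191 and 1194 CPM at day 3, 996, 1024 and 942 CPM at day 4 and 1133, 981 and 1041 CPM at day 5, against 26.4, 17.0 and 18.3 CPM in crypts. The monolayer libraries differed little from one another beside their distance to crypts. By day, the log2 fold change of F3 against crypts was 5.87, 5.62 and 5.71, each called.

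Amotl2 and Ajuba encode junction-associated proteins that act on the pathway itself: angiomotin-like 2 binds YAP and holds it at junctions, and the LIM protein AJUBA binds and restrains LATS kinases. Amotl2 stood at 325, 246 and 295 CPM at day 3, 267, 265 and 278 CPM at day 4 and 300, 248 and 264 CPM at day 5, against 10.2, 9.91 and 11.7 CPM in crypts. The 3 days overlapped one another. Amotl2 rose by a log2 fold change of 4.69 ± 0.12 in monolayers against crypts (edgeR adjusted p = 5.41e-16).

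Ajuba was at 113, 108 and 120 CPM at day 3, 83.0, 80.9 and 95.7 CPM at day 4 and 74.7, 72.7 and 88.7 CPM at day 5, against 2.20, 1.30 and 3.97 CPM in crypts. All day 3 libraries lay above those of the later days, and crypts replicate 3 was the highest crypt library with 44 counts, where replicates 1 and 2 had 11 and 10. The log2 fold change in monolayers against crypts was 5.09 ± 0.21 (edgeR adjusted p = 1.55e-13) and 5.77 without crypts replicate 3. By day Ajuba differed from crypts by 5.40, 5.01 and 4.87 with all crypt libraries and by 6.08, 5.69 and 5.55 without that one.

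Lats2 encodes the kinase that phosphorylates YAP, and its transcription is itself raised by YAP, a known negative feedback. It was at 59.9, 50.9 and 62.1 CPM at day 3, 69.6, 58.7 and 56.4 CPM at day 4 and 58.2, 72.5 and 72.4 CPM at day 5, against 15.0, 24.3 and 16.8 CPM in crypts. Each monolayer library lay above the highest crypt library, and the days overlapped. Lats2 rose by 1.73 ± 0.15 on the log2 scale in monolayers against crypts (edgeR adjusted p = 9.23e-09). A protein-coding model on the same strand, Gm49361, shares 2955 exon bases with Lats2, so how reads were split between them is uncertain.

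Axl, a receptor tyrosine kinase reported as a YAP target in human cells, was the exception. It had 0, 1 and 7 counts at day 3, 3, 3 and 1 counts at day 4 and 9, 0 and 2 counts at day 5, against 15, 5 and 7 counts in crypts. Its mean level was 0.201 ± 0.288 CPM at day 3, 0.220 ± 0.0863 CPM at day 4 and 0.720 ± 0.962 CPM at day 5, against 1.43 ± 1.36 CPM in crypts (SD, n = 3 each). The monolayer means lie around the floor of 3 counts, whereas each crypt library was above it. Day 5 replicate 1, at 1.81 CPM, was the only monolayer library above the lowest crypt library, at 0.631 CPM. The filter on low counts removed Axl from the test. With no filter, its log2 fold change in monolayers against crypts was −2.08 ± 1.07 (edgeR adjusted p = 0.0966), and of the 12 fits that left out a library, 10 kept it and 1 called it lower, that without day 3 replicate 3 (−2.75, edgeR adjusted p = 0.0309). A difference for Axl was therefore not detectable at this depth with all libraries. The promoter window of Axl holds a TEAD core, as do those of 6 genes that were higher in monolayers.

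**Figure D3:**
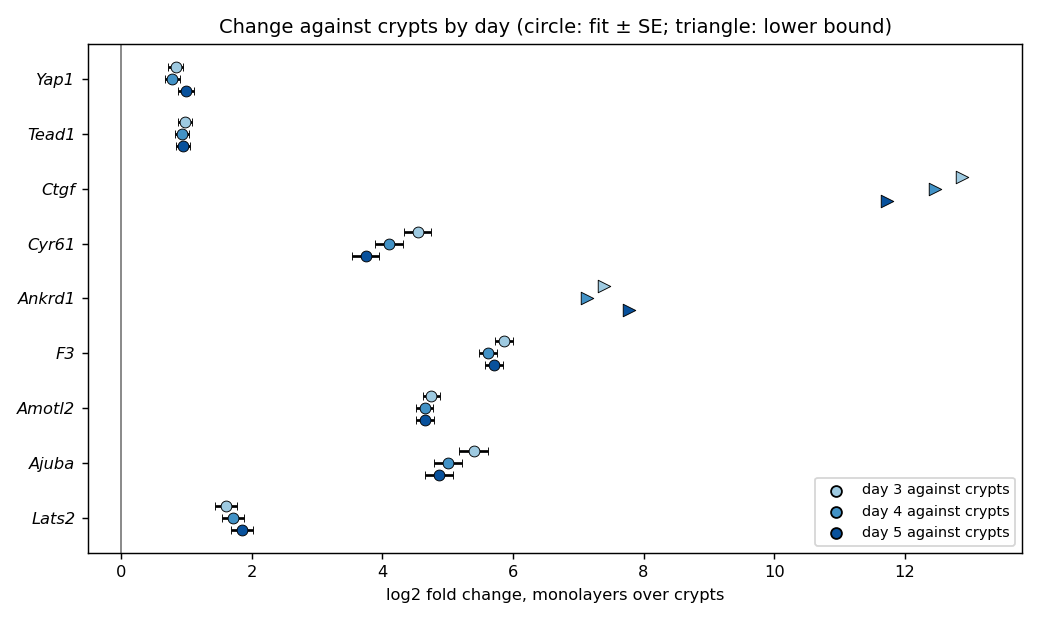
Log2 fold change of monolayers over crypts for the 9 tested genes at each day. Circles are fitted values ± SE, and triangles are lower bounds for Ctgf and Ankrd1, which had no count in crypts; Yap1 and Tead1 lie between 0.79 and 0.999, Lats2 between 1.62 and 1.85, and the other genes at 3.74 or more.

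The order of the genes by level, in CPM per kilobase of merged exon in the GENCODE vM21 annotation, was different in monolayers and crypts. In monolayers F3 led with 572, followed by Ctgf with 251 and Amotl2 with 62.0 CPM per kilobase, and the ranges of these 3 genes did not overlap. Cyr61 (32.9), Ajuba (27.3) and Yap1 (23.8) came next, with overlapping ranges between neighbours over all days. At day 3 their ranges did not overlap (Cyr61 42.6, Ajuba 33.4 and Yap1 23.1 CPM per kilobase), and at day 5 they did (Cyr61 24.5, Ajuba 23.2 and Yap1 25.9). Ankrd1 (11), Lats2 (9.63) and Tead1 (9.57) could not be ordered, since their ranges overlapped, and Axl was last at 0.0887. In crypts Yap1 was first with 12.8 CPM per kilobase and F3 second with 10.98, with overlapping ranges, ahead of Tead1 at 4.94. Lats2 (2.89) and Amotl2 (2.38) overlapped, Cyr61 had 1.76, Ajuba (0.733) and Axl (0.333) overlapped, and Ctgf and Ankrd1 were at 0. Of the summed CPM of the 10 genes in each library, Ctgf and F3 made up 67.4 to 74.9% in monolayers and 10.3 to 17.2% in crypts, whereas Yap1 and Tead1 made up 6.66 to 9.83% in monolayers and 61.2 to 66.0% in crypts. The sum itself was 2883 ± 75.4 CPM at day 3, 2385 ± 165 at day 4 and 2181 ± 112 at day 5, against 161 ± 5.93 CPM in crypts (SD, n = 3 each).

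Between the monolayer days the genes parted. At day 5 against day 3, 3 of the 9 genes were lower (Ctgf, Cyr61 and Ajuba) and none higher, where 20.4% of all genes were called, 10.5% lower. At day 5 against day 4, 1 of 9 was lower (Ctgf), where 7.56% of all genes were called, 4.2% lower. At day 4 against day 3 no member was called by edgeR at an adjusted p under 0.05, where 2.77% of all genes were, 1.17% lower. At an unadjusted edgeR p under 0.05, 4 of 9 genes passed, where 13.6% of all genes did in either direction. These were Ctgf, Cyr61, F3 and Ajuba, all lower, and DESeq2 called 1 of them, Ctgf, after adjustment. When only the libraries of days 3 and 4 entered the fit, those 4 genes were called lower by edgeR, with adjusted p-values of 0.00525, 0.0204, 0.00871 and 0.00502 for Ctgf, Cyr61, F3 and Ajuba. That fit called 1144 of 11985 genes tested, 561 of them lower, against 356 of 12863 in the fit of all 12 libraries, 151 of them lower. At an unadjusted edgeR p under 0.05 in the fit of all libraries, 3 of 9 members passed at day 5 against day 4, 2 of them lower. There 21.8% of all genes passed in either direction. At day 5 against day 3, 3 of 9 passed, all lower, where 32.2% of all genes passed in either direction.

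Of the 3 members that were lower at day 5 than at day 3, Ctgf had the largest change. Its mean was 430 ± 71.0 CPM at day 5, against 949 ± 41.9 CPM at day 3 and 710 ± 140 CPM at day 4 (SD, n = 3 each), and every day 5 library lay below every library of the earlier days. It fell by 1.14 ± 0.13 on the log2 scale at day 5 against day 3 (edgeR adjusted p = 1.17e-05) and by 0.72 ± 0.13 at day 5 against day 4 (edgeR adjusted p = 0.00245). At day 4 against day 3 its log2 fold change was −0.42 ± 0.13 (edgeR adjusted p = 0.118). Cyr61 averaged 49.4 ± 8.53 CPM at day 5 and 86.1 ± 2.38 CPM at day 3, and fell by 0.80 ± 0.16 on the log2 scale (edgeR adjusted p = 0.00161). Its changes at day 5 against day 4 (−0.36 ± 0.16, edgeR adjusted p = 0.206) and day 4 against day 3 (−0.44 ± 0.16, edgeR adjusted p = 0.190) did not pass. The ratio of Ctgf to Cyr61, in CPM, was 11.8, 10.3 and 11.02 in the day 3 libraries, 10.8, 10.5 and 12.4 in those of day 4 and 9.14, 8.15 and 8.88 in those of day 5, so day 5 had the 3 lowest ratios.

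Ajuba averaged 78.7 ± 8.71 CPM at day 5 and 114 ± 6.27 CPM at day 3, and fell by 0.53 ± 0.15 on the log2 scale (edgeR adjusted p = 0.0195). That call was lost without day 3 replicate 1 (edgeR adjusted p = 0.0596), without day 3 replicate 3 (0.0842) and without day 5 replicate 2 (0.0888). Among the others, Ankrd1 differed at day 5 against day 3 by 0.36 ± 0.26 (edgeR adjusted p = 0.365) and at day 5 against day 4 by 0.63 ± 0.26 (edgeR adjusted p = 0.168). Yap1 had no library overlap between day 5 and either earlier day, with log2 differences of 0.16 against day 3 (edgeR adjusted p = 0.354) and 0.21 against day 4 (edgeR adjusted p = 0.307). Libraries did not overlap for 40.8% of all genes between day 5 and day 3, and for 27.1% between day 5 and day 4. F3, Amotl2, Lats2 and Tead1 had log2 differences of −0.16, −0.10, 0.24 and −0.03 at day 5 against day 3, none called.

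**Figure D4:**
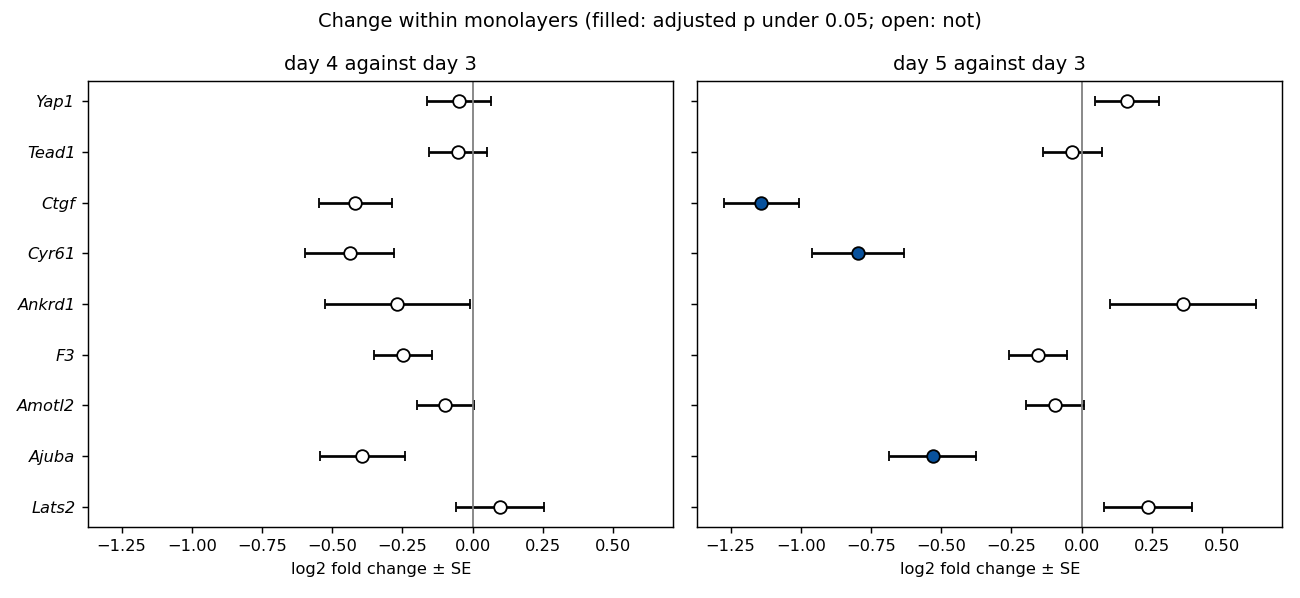
Log2 fold change ± SE of the 9 tested genes at day 4 against day 3 (left) and at day 5 against day 3 (right), from the edgeR fit of all 12 libraries. Filled points passed an adjusted p of 0.05; only Ctgf, Cyr61 and Ajuba at day 5 against day 3 are filled, at −1.14, −0.80 and −0.53.

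Other genes of the pathway were followed in lists chosen by function, with earlier results of these data known. For comparison with each count against crypts, 63.5% of all genes were called and 30.7% were higher. Of 8 other TEAD factors and TEAD cofactors 6 had enough counts, and 5 were higher and none lower in monolayers, with a median log2 fold change of 2.12. Wwtr1, which encodes TAZ, was at 88.2, 93.7 and 89.7 CPM at day 3, 82.8, 90.7 and 94.7 CPM at day 4 and 59.4, 56.2 and 61.1 CPM at day 5, against 4.00, 0 and 0.631 CPM in crypts. The 3 day 5 libraries lay below all those of days 3 and 4, and crypts replicate 1 held 20 of the 27 crypt counts. Its log2 fold change in monolayers against crypts was 6.04 ± 0.37 (edgeR adjusted p = 5.69e-11) and 7.67 without crypts replicate 1, and at day 5 against day 3 it was −0.62 ± 0.24 (edgeR adjusted p = 0.0815). Per exon length, Wwtr1 stood at 0.808, 0.841 and 0.810 of the level of Yap1 in the day 3 libraries, 0.799, 0.899 and 0.816 in those of day 4 and 0.441, 0.476 and 0.516 in those of day 5, against 0.0779, 0 and 0.00882 in crypts. At day 5 the ratio was lower in every library than on the earlier days, and crypts had the lowest ratios of all.

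Tead4 averaged 60.1 ± 5.35 CPM at day 3, 33.2 ± 3.34 CPM at day 4 and 20.7 ± 2.80 CPM at day 5, against 5.14 ± 3.44 CPM in crypts (SD, n = 3 each). The libraries of the 3 days did not overlap, but neither day 4 against day 3 (−0.85 ± 0.29, edgeR adjusted p = 0.153) nor day 5 against day 4 (−0.69 ± 0.30, edgeR adjusted p = 0.195) was called. Tead4 rose by 2.87 ± 0.32 in monolayers against crypts (edgeR adjusted p = 3.45e-07; 2.28 without crypts replicate 3) and fell by 1.54 ± 0.30 at day 5 against day 3 (edgeR adjusted p = 0.00122). Tead2 changed by 1.37 ± 0.36 against crypts (edgeR adjusted p = 0.00265), with overlapping libraries, and Vgll4, a cofactor that competes with YAP for TEAD, by 0.76 ± 0.15 (edgeR adjusted p = 0.000211). Tead3 was not called against crypts (0.39 ± 0.19, edgeR adjusted p = 0.0898) and was higher at day 5 than at day 3 (0.74 ± 0.23, edgeR adjusted p = 0.0265); this gene was named after its values were seen. The cofactor gene Vgll3 had 7.55 CPM on average at day 5, against 1.60 CPM at day 3, and only 2 counts in crypts, both in replicate 1, which gave a ratio of 38.0 between pooled monolayers and crypts (exact 95% interval 10.4 to 315, counting error only). Its fitted log2 fold change against crypts was 4.89 ± 0.82 (edgeR adjusted p = 4.03e-05), and it was 7.90 without crypts replicate 1, where the crypts left had no count, and 4.10 without crypts replicate 3. Its increase at day 5 against day 3 was 2.22 ± 0.58 (edgeR adjusted p = 0.0102; 0.0516 without day 3 replicate 1).

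Of 26 regulators in the Hippo pathway, its kinases among them, 24 were tested. In monolayers against crypts 15 were higher, 2 lower and 7 not called, with a median log2 fold change of 0.62. In either direction, the share of these regulators that was called was near the 63.5% of all genes. By direction, 15 of 24 were higher, where 30.7% of all genes were. The largest rises were in Frmd6 (willin), an upstream FERM-domain protein, at 60.8, 47.0 and 38.7 CPM at days 3, 4 and 5 against 1.55 CPM in crypts (log2 fold change 4.79 ± 0.22), and Amotl1, a paralog of Amotl2, at 193, 150 and 133 CPM against 14.9 CPM (3.41 ± 0.11). Fat1, an atypical cadherin, was at 3651, 3471 and 4275 CPM against 709 CPM in crypts (2.42 ± 0.07), and Wwc1 (KIBRA) at 393, 373 and 418 CPM against 81.7 CPM (2.26 ± 0.11). Among those not called were Lats1, the paralog of Lats2, with a log2 fold change of 0.10, and the adaptor genes Sav1 and Mob1b, with 0.17 and 0.15. Of the same list, Stk3 (1.04 ± 0.10, edgeR adjusted p = 2.46e-08) and Mob1a (0.40 ± 0.11, edgeR adjusted p = 0.00407) were called higher. So was Stk4, with overlapping libraries (0.23 ± 0.08, edgeR adjusted p = 0.0239). All of these genes from Lats1 to Stk4 were named after their values were seen. The 2 lower genes were Nf2, which encodes the tumour suppressor merlin, and Taok2, an upstream kinase. Nf2 was at 67.6, 65.1 and 76.1 CPM at days 3, 4 and 5, against 134 CPM in crypts (−0.95 ± 0.09, edgeR adjusted p = 5.24e-08), and Taok2 at 64.7, 69.4 and 75.8 CPM, against 115 CPM (−0.72 ± 0.09, edgeR adjusted p = 1.83e-06). At day 5 against day 3, where 20.4% of all genes were called and 10.5% lower, 5 regulators were higher and 3 lower, among them Frmd6 (−0.66 ± 0.17, edgeR adjusted p = 0.00889) and Amotl1 (−0.54 ± 0.10, edgeR adjusted p = 0.000598); the third was Dlg1, and the 5 higher were Taok3, Map4k4, Fat1, Mpp5 and Scrib, of which all but Fat1 were named after their values were seen.

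A published set of YAP and TAZ targets drawn from human cancers holds 15 further genes. Of these 13 were tested, and 9 were higher, 2 lower and 2 not called, where 63.5% of all genes were called and 30.7% higher; the list's median log2 fold change was 1.003. Myof, which encodes the membrane-repair protein myoferlin, was at 1170, 1012 and 947 CPM at days 3, 4 and 5, against 63.7 CPM in crypts (4.03 ± 0.08, edgeR adjusted p = 1.14e-17). Arhgef17 was at 80.4, 76.4 and 59.1 CPM, against 3.58 CPM (4.50 ± 0.26, and 5.13 without crypts replicate 1). Ptpn14, a phosphatase that binds YAP, was at 81.6, 84.6 and 63.2 CPM, against 9.51 CPM (3.04 ± 0.18). Igfbp3, a binding protein of insulin-like growth factors, was low, at 4.55, 1.95 and 5.64 CPM, against 0.578 CPM (2.73 ± 0.60; 3.71 without crypts replicate 2 and 2.10 without crypts replicate 3). The set did not move as a block. Nuak2, a kinase of the AMPK family, was at 4.75, 6.95 and 11.7 CPM at days 3, 4 and 5, against 40.9 CPM in crypts, a change of −2.48 ± 0.20 (edgeR adjusted p = 2.68e-09). Rbms3 changed by −1.72 ± 0.60 (edgeR adjusted p = 0.0175), a call lost without crypts replicate 3 (edgeR adjusted p = 0.104). At day 5 against day 3 Nuak2 rose by 1.32 ± 0.28 (edgeR adjusted p = 0.00236) and Myof fell by 0.31 ± 0.07 (edgeR adjusted p = 0.0054). Between those days 3 of the 13 tested genes were called lower and 1 higher, where 20.4% of all genes were called and 10.5% were lower. Gadd45a and Dock5 were the other 2 that fell, and they were named after their values were seen.

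**Figure D5:**
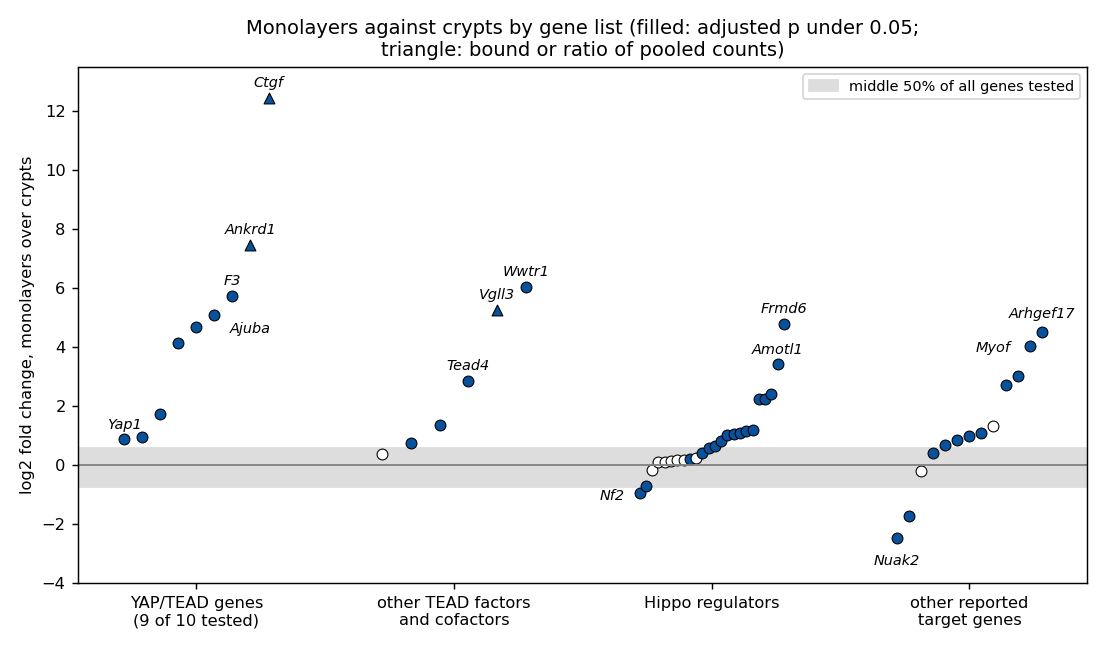
Log2 fold change of monolayers over crypts for the tested genes of each list: the YAP/TEAD genes, other TEAD factors and cofactors, Hippo regulators and other reported targets. Each point is a gene, filled where the edgeR adjusted p was under 0.05, triangles stand for a bound or a ratio of pooled counts, and the grey band holds the middle 50% of all genes tested; the 9 YAP/TEAD genes lie above the band, and Nf2 and Nuak2 are the lowest of their lists.

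The CCN family, to which Ctgf and Cyr61 belong, also had a member that went the other way. Nov, which encodes another matricellular protein of the family, had no count in any of the 9 monolayer libraries, against 130, 148 and 276 CPM in crypts. It was at least 5521-fold lower in monolayers when set against a pooled monolayer floor of 3 counts. Of the 3 other CCN genes none was tested, and Wisp1 had 60 counts over all monolayer libraries, 29 of them in day 5 replicate 1, against 0 in crypts.

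Genes with the patterns most like those of Ctgf and Yap1 were looked up. Likeness was taken as the mean absolute difference of log2 CPM (prior count 2), centred on each gene, over the 12 libraries, among 9284 genes with a mean of at least 8 CPM. For Ctgf the nearest was Msln at 0.806, then Ptgs2 at 0.822, Ly6c1 at 0.854, Atg9b at 0.942 and Plat at 1.04. Ptgs2, which encodes the inducible cyclooxygenase, was at 255, 178 and 123 CPM at days 3, 4 and 5, against 0.0601 CPM in crypts, and Plat, tissue plasminogen activator, at 237, 163 and 151 CPM, against 0.254 CPM. Msln was at 747, 663 and 617 CPM, against 0.875 CPM in crypts. The other neighbours did not fall from day 3 on: Ly6c1 was at 559, 723 and 597 CPM, against 1.29 CPM, and Atg9b at 173, 174 and 235 CPM, against 0.0301 CPM. For Yap1 the nearest were Otud5 at 0.0552, Rp2h at 0.0714, Ptgfrn at 0.0808, Dsp at 0.0835 and Ranbp9 at 0.0845. At least 5956 of the 9284 genes lay nearer to Yap1 than Msln lay to Ctgf, so nearness to Yap1 was common. The smaller distances around Yap1 go with its smaller change, since the measure is not scaled to the size of the change.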

How the data were processed

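Total RNA of 12 libraries was sequenced, 3 each of monolayers at days 3, 4 and 5 and of crypts. The authors deposited a table of read counts per gene for each library, whole numbers without scaling. CASAVA 1.9, TopHat2, HTSeq and the builds mm9 and mm10, with no role for either build, are listed per the submitters' processing notes; no source used here gives the annotation or the strand setting. Each table held 23420 gene rows and 5 summary rows, which stayed out of library sizes and tests. Reads in no gene made up 38.7 to 42.8% of reads in monolayers and 45.6 to 49.0% in crypts, those without a unique alignment 14.2 to 19.2% and ambiguous ones 0.154 to 0.207%.

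Tests on the deposited counts used edgeR 4.0.16 in R 4.3.3 (filterByExpr with a minimum count of 10, which kept 12863 genes; TMM factors of 0.91 to 1.12; glmQLFit and glmQLFTest in 1 fit of 4 groups, two-sided), and 7 contrasts were adjusted over all genes tested. The script was tested on simulated data. Alternatives were library totals, RLE factors, DESeq2 1.42.0, no filter, only the groups compared, the replicate number as a block and leaving out each library. Each SE is the fold change divided by the root of F, and levels are TMM-scaled CPM. Depth was 4518314 to 14290393 gene counts per library. No replicate pair was within sampling noise (chi-square per degree of freedom 5.58 to 27.7). Of 18 same-numbered pairs of libraries, none had deviations correlated over 0.1. With 3 libraries per group this cannot show whether same-numbered libraries shared an animal or a batch. Exon lengths and overlapping genes come from GENCODE vM21, and promoters from RefSeq (GRCm38.p6), which may not be the authors' annotation.

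Named genes were the 10 members, up to 4 called genes each way per pathway list that averaged 1 CPM or more, Wwtr1, Nov and the 5 genes nearest in pattern to Ctgf and to Yap1. The members and all lists were chosen with earlier results of these data known.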

Additional observations from a re-analysis of the deposited data

Results flagged for a closer look

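In 4 cases the effect against crypts differed between monolayer days. Since both days are set against the same crypts, the difference of the 2 effects is the contrast between the days itself. For Ctgf the effect was smaller at day 5 than at day 4 (log2 difference −0.72, edgeR adjusted p = 0.00245) and smaller at day 5 than at day 3 (−1.14, edgeR adjusted p = 1.17e-05). Cyr61 had a smaller effect at day 5 than at day 3 (−0.80, edgeR adjusted p = 0.00161), and so had Ajuba (−0.53, edgeR adjusted p = 0.0195). All 3 genes remained higher than in crypts at every day.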

How the results depend on the processing

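All 9 tested members were called higher than crypts, over the days and at each day, under every alternative; leaving out each library gave 9 to 10 members called for monolayers and for day 3 against crypts (the tenth being Axl, lower without day 3 replicate 3), 9 to 9 for days 4 and 5, 0 to 0 for day 4 against day 3, 1 to 1 for day 5 against day 4 and 2 to 3 for day 5 against day 3. At day 4 against day 3 members called numbered 0 in the main analysis, 1 with DESeq2, 1 with no filter and 4 with only the groups compared. Over all genes, 356 of 12863 were called there in the main analysis and 631 of 12863 with DESeq2. The count was 636 of 18195 with no filter and 1144 of 11985 with only the groups compared. The cause of these differences was not tested. The last setting is the main fit itself for monolayers against crypts and was not run there. The replicate block called the same number of members in every contrast (9 for monolayers against crypts) and 7996 of all genes, against 8163. Library totals in place of TMM moved the median of all genes from −0.03 to −0.21 for monolayers against crypts, and the share of calls that were higher to 37.8% against 48.3%; the smallest member change was then 0.69, for Yap1, still called. Among the CCN genes 2 were called with no filter, against 1.

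Some small uncalled differences changed sign. Amotl2 at day 5 against day 4 was at 0.00, and at −0.0335 with library totals, −0.000443 with RLE factors, −0.000654 with DESeq2, −0.00179 with no filter, −0.00257 with the replicate block, −0.00198 with only the groups compared and −0.0797 to 0.0585 without single libraries. Tead1 at day 5 against day 4 was at −0.0157 with library totals and −0.0275 to 0.0745 without single libraries, Tead1 at day 5 against day 3 at −0.101 to 0.0232, and Lats2 at day 4 against day 3 at −0.00195 to 0.155. Low counts limit Axl, and zero counts in crypts limit Ctgf and Ankrd1 to bounds.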
